A study of Homo sapiens with 4 samples.

Results

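Integrin subunits are the membrane proteins that pair, 1 alpha with 1 beta chain, into receptors for the extracellular matrix and for ligands on other cells. The subunits examined were chosen by gene symbol, as 9 integrin alpha and beta genes on chromosomes 1 to 5: ITGA1, ITGA2, ITGA4, ITGA6, ITGA9, ITGA10, ITGAV, ITGB5 and ITGB6. Of these, 8 were each represented by 1 feature that the platform annotation pairs with that symbol alone, out of 13493 features and 6574 named genes in the value table. ITGA1 was paired with no such feature and was not analysed here.

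The cells were SK-N-SH, an adherent human neuroblastoma line, grown in serum-containing medium and profiled on the Affymetrix Human Transcriptome Array. There were 2 TCDD arrays, from cells exposed for 24 h to 1e-10 M of the dioxin TCDD in DMSO, and 2 DMSO arrays, from cells given the solvent. The study asked which transcripts differ after a low concentration of TCDD, a ligand of the transcription factor AhR. Titles number the arrays of a group as biological replicates, but no label names separate cultures or days, so p-values measure the spread between these arrays, and 2 arrays a group limit the precision of every value.

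An integrin recognises its ligand through the head that its chains form outside the cell. The short tails reach into the cell and bind talin, kindlin and adaptor proteins, which link the receptor to actin and to kinases such as FAK and Src. Conformational switching, endocytosis and recycling set how much receptor is active at the surface. In the neural crest and in tumours derived from it, integrins take part in migration, survival and attachment to matrix. Alpha subunits fall by ligand into collagen receptors (ITGA1, ITGA2, ITGA10), laminin receptors (ITGA6), the closely related pair ITGA4 and ITGA9, and receptors for the Arg-Gly-Asp motif (ITGAV). ITGB5 and ITGB6 are beta partners of ITGAV, while the other alpha subunits listed pair mainly with ITGB1, which was not analysed here.

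Because AhR and its partner ARNT bind DNA at a GCGTG core, the 250 bases before annotated transcript starts were searched for GCGTG and its reverse complement CACGC, in RefSeq sequences of GRCh38.p14. RefSeq gave 12 such windows for 8 of the 9 listed genes, ITGA1 included and ITGA9 not. The core was in 5 windows of 4 genes (ITGA2, ITGA4, ITGA6 and ITGB5), against 32.2% of all 35116 windows. The longer form TNGCGTG, which contains the core, was in 0 of the 12 windows, against 4.52% of all windows. ITGA6, the subunit with the largest change among the 8, had 2 windows, of which 1 held 1 core match and the other 0. The window with the match is shown whole (chr2:172427086-172427335, plus strand), 5′ to 3′, with the core match in capitals, 158 bases before the start.
ITGA6 window with a match: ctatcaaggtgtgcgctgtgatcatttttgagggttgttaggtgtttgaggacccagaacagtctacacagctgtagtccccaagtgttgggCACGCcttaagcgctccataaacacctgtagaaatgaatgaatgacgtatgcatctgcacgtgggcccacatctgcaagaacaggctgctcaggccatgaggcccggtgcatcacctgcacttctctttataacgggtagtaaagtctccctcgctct
The other matches are shown as stretches around the core, in capitals, on the strand of each gene, to show the bases beside it. They lie at chr5:52989174-52989198 (ITGA2, plus strand), chr2:181457340-181457364 (ITGA4, plus strand), and, for ITGB5 on the minus strand, at chr3:124887820-124887844, chr3:124887870-124887894 and chr3:124887595-124887615. A further ITGB5 match overlaps the second of these. The ITGA4 and ITGB5 matches lie before inner transcript starts, within the genes as annotated, whose outermost starts are chr2:181457205 and chr3:124901418. The ITGB5 window before its outermost start held 0 matches. The ITGA2 and ITGA6 matches lie before the outermost starts of their genes.
ITGA2: gcggtgccccGCGTGtggacgagcc
ITGA4: gcctccgcacCACGCccgggacccc
ITGB5 first: tttgcggttcCACGCgcgggcgtct
ITGB5 second: cttgtgcctcCACGCcccaccacgc
ITGB5 upstream of another start: gcccccCACGCcccaagtgag
A match describes these letters and is not a measured binding site.

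Signals of 6 of the 8 subunits were higher in TCDD than in DMSO, with no overlap between the arrays of the groups, and those of ITGA10 and ITGB6 were lower, also without overlap. Over all features the arrays did not overlap for 40.7% in the higher direction and for 30.9% in the lower. ITGA6, ITGB5 and ITGA4 rose, by 1.20-fold, 1.18-fold and 1.17-fold, in limma's test with Benjamini-Hochberg adjustment over all features. Thus 3 of 8 subunits were called higher and 0 lower at an adjusted p under 0.05, where 9.41% of all features were called higher and 8.01% lower. At an unadjusted p under 0.05, 6 subunits were higher and 1 lower, where 22.8% and 16.7% of features were. The median change of the 8 was 0.19 on the log2 scale, TCDD minus DMSO, against 0.023 over all features. All changes were small, from 0.92-fold to 1.20-fold. In an exact permutation test of a single feature, 2 arrays against 2 cannot give a two-sided p below 0.333. Fewer cells with a transcript and less of it per cell cannot be told apart in such bulk RNA.

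**Figure D1:**
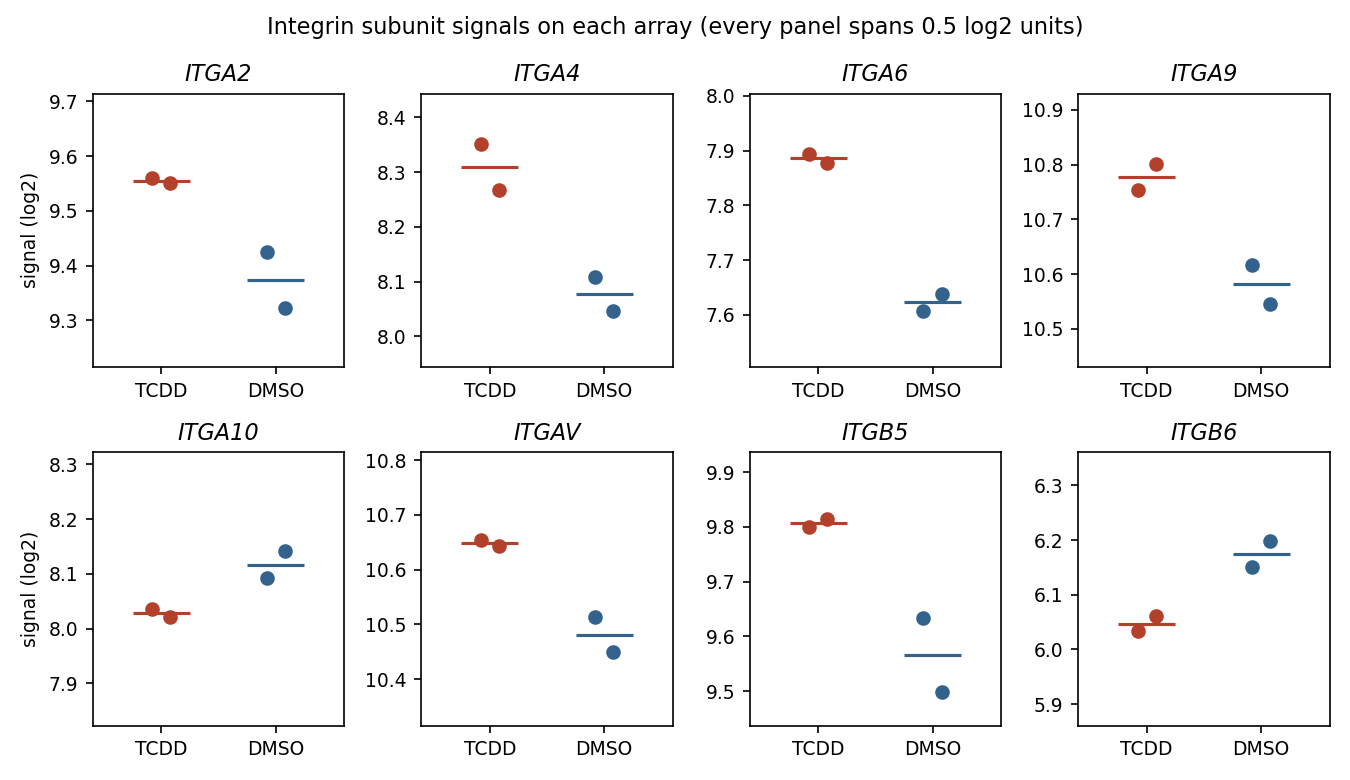
Log2 signal (y axis) of each of 8 integrin subunits on the 2 TCDD arrays (red, left) and the 2 DMSO arrays (blue, right), with lines at group means and every panel spanning 0.5 log2 units. The groups do not overlap in any panel, and TCDD lies lower only for ITGA10 and ITGB6.

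ITGA6, the laminin-binding alpha chain that pairs with ITGB1 or ITGB4, had the largest change. Its signal was 7.89 and 7.88 (log2) on the TCDD arrays, against 7.61 and 7.64 on the DMSO arrays. The groups lay 0.24 apart at their nearest arrays, while arrays within a group differed by 0.017 (TCDD) and 0.031 (DMSO). The rise was 0.26 on the log2 scale (SE 0.050, 95% interval 0.14 to 0.39, limma adjusted p = 0.024). It was larger after cyclic loess normalization, at 0.31 (limma adjusted p = 0.020), and 0.30 after quantile normalization (limma adjusted p = 0.028). ITGA6 was also called without DMSO replicate 1 (0.25). It was not called without TCDD replicate 1 (0.25), TCDD replicate 2 (0.27) or DMSO replicate 2 (0.28), although its change hardly moved. Without either TCDD array, every subunit had the same SE of 0.115, against 0.050 for ITGA6 with all arrays. A call in those fits therefore depended on the size of the change alone. Calls lost in them, here and below, do not test single genes.

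Of the related pair, ITGA4 rose and ITGA9 was higher without being called. ITGA4 is the chain of receptors for fibronectin and VCAM1 that neural crest cells and leukocytes use. It read 8.35 and 8.27 (log2) on the TCDD arrays, against 8.11 and 8.05 on the DMSO arrays. Its change was 0.23 on the log2 scale (SE 0.057, 95% interval 0.093 to 0.37, limma adjusted p = 0.043). The 2 TCDD arrays were 0.084 apart, the widest TCDD gap of the 8 subunits, and the lower of them was still 0.16 above the higher DMSO array. Its change was 0.24 after cyclic loess normalization (limma adjusted p = 0.044) and 0.25 after quantile normalization (limma adjusted p = 0.060). ITGA4 was not called without TCDD replicate 1 (0.19), TCDD replicate 2 (0.27) or DMSO replicate 2 (0.20), and was called without DMSO replicate 1 (0.26). ITGA9, a receptor chain for tenascin-C, osteopontin and VCAM1, read 10.75 and 10.80 (log2) in TCDD, against 10.62 and 10.55 in DMSO. Its difference of 0.20 (SE 0.055, 95% interval 0.063 to 0.33) had a limma adjusted p of 0.056. After cyclic loess normalization the ITGA9 difference was 0.071, and after quantile normalization 0.049.

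The vitronectin receptor chains ITGAV and ITGB5 were both higher in TCDD, and only ITGB5 was called. ITGB5, a beta chain that pairs with ITGAV alone, read 9.80 and 9.81 (log2) on the TCDD arrays, against 9.63 and 9.50 on the DMSO arrays. Its 2 DMSO arrays were 0.13 apart, the widest DMSO gap of the 8 subunits. It rose by 0.24 on the log2 scale (SE 0.062, 95% interval 0.091 to 0.39, limma adjusted p = 0.047). The ITGB5 change was 0.13 after cyclic loess normalization (limma adjusted p = 0.102) and 0.12 after quantile normalization (limma adjusted p = 0.144). It was 0.31 without DMSO replicate 1, where it was called, and 0.17 without DMSO replicate 2, 0.25 without TCDD replicate 1 and 0.23 without TCDD replicate 2, where it was not. ITGAV, the alpha chain shared by most Arg-Gly-Asp receptors, read 10.65 and 10.64 (log2) in TCDD, against 10.51 and 10.45 in DMSO. The difference of 0.17 (SE 0.053, 95% interval 0.039 to 0.29, limma adjusted p = 0.073) did not pass, and was 0.041 after cyclic loess and 0.027 after quantile normalization. ITGB6, the beta chain that lets ITGAV activate latent TGF-beta in epithelia, lay the other way. Its signal was 6.03 and 6.06 (log2) in TCDD, against 6.15 and 6.20 in DMSO, a difference of -0.13 (SE 0.052, 95% interval -0.25 to -0.0013, limma adjusted p = 0.124).

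Neither collagen-binding chain was called. ITGA2, whose receptor with ITGB1 binds collagen and laminin, read 9.56 and 9.55 (log2) in TCDD, against 9.42 and 9.32 in DMSO. The difference was 0.18 (SE 0.057, 95% interval 0.043 to 0.32, limma adjusted p = 0.072), and 0.079 after cyclic loess and 0.070 after quantile normalization. ITGA10, best known from cartilage, read 8.04 and 8.02 (log2) in TCDD, against 8.09 and 8.14 in DMSO. This difference of -0.088 (SE 0.052, 95% interval -0.21 to 0.036, limma adjusted p = 0.240) was the smallest of the 8, and its groups were 0.056 apart at their nearest arrays. ITGA2, ITGA9 and ITGAV were called higher only when DMSO replicate 1 was left out (0.23, 0.23 and 0.20) or under fits given with the alternatives.

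**Figure D2:**
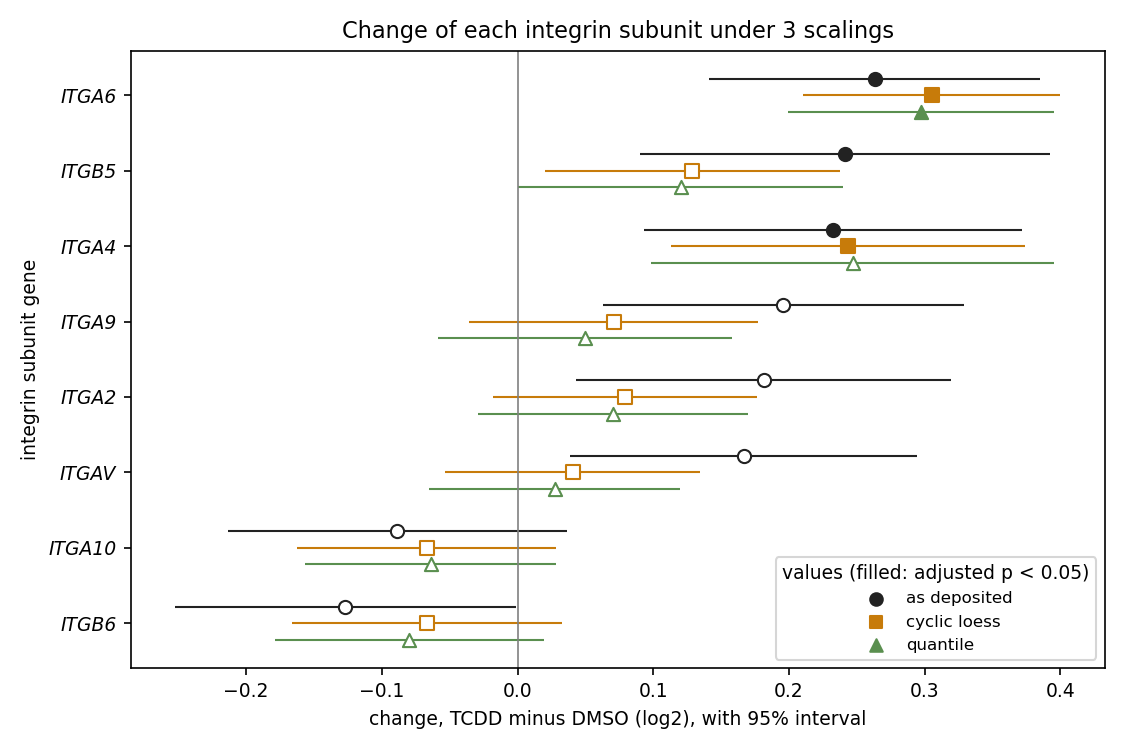
Change in TCDD minus DMSO (x axis, log2) with its 95% interval for each subunit (y axis), for values as deposited (circles), after cyclic loess (squares) and after quantile normalization (triangles), with filled symbols at a limma adjusted p under 0.05. ITGA6 and ITGA4 keep changes of 0.23 to 0.31 under all 3 scalings, while ITGB5, ITGA9, ITGA2 and ITGAV shrink.

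Over the whole table, the median change was 0.12 in the brightest 25% of features, 0.034 in the next, -0.042 in the one below that and -0.057 in the dimmest (log2, TCDD minus DMSO). The order of changes among the subunits did not follow signal. The interquartile range of signal was 2.21 and 2.20 on the TCDD arrays, against 2.13 and 2.00 on the DMSO arrays. ITGA2, ITGA9, ITGAV and ITGB5 all belonged to the brightest 25%, where the arrays did not overlap in the higher direction for 71.2% of features and 12.5% were called higher. Their changes of 0.17 to 0.24 became 0.041 to 0.13 after cyclic loess normalization and 0.027 to 0.12 after quantile normalization. ITGA6 and ITGA4 lay among features whose median change was -0.042 and of which 8.39% were called higher, or 9.75% after cyclic loess. The arrays did not overlap in the higher direction for 25.6% of that class. The ITGA6 and ITGA4 changes of 0.23 to 0.26 became 0.24 to 0.31 after cyclic loess and 0.25 to 0.30 after quantile normalization. ITGA10, in the same signal class, and ITGB6, in the dimmest, lay lower as the medians of their classes did, at -0.067 each after cyclic loess. With cyclic loess, 2 of 8 subunits were called higher (ITGA6 and ITGA4), where 7.26% of features were, and with quantile normalization 1 of 8 (ITGA6), where 5.61% were.

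**Figure D3:**
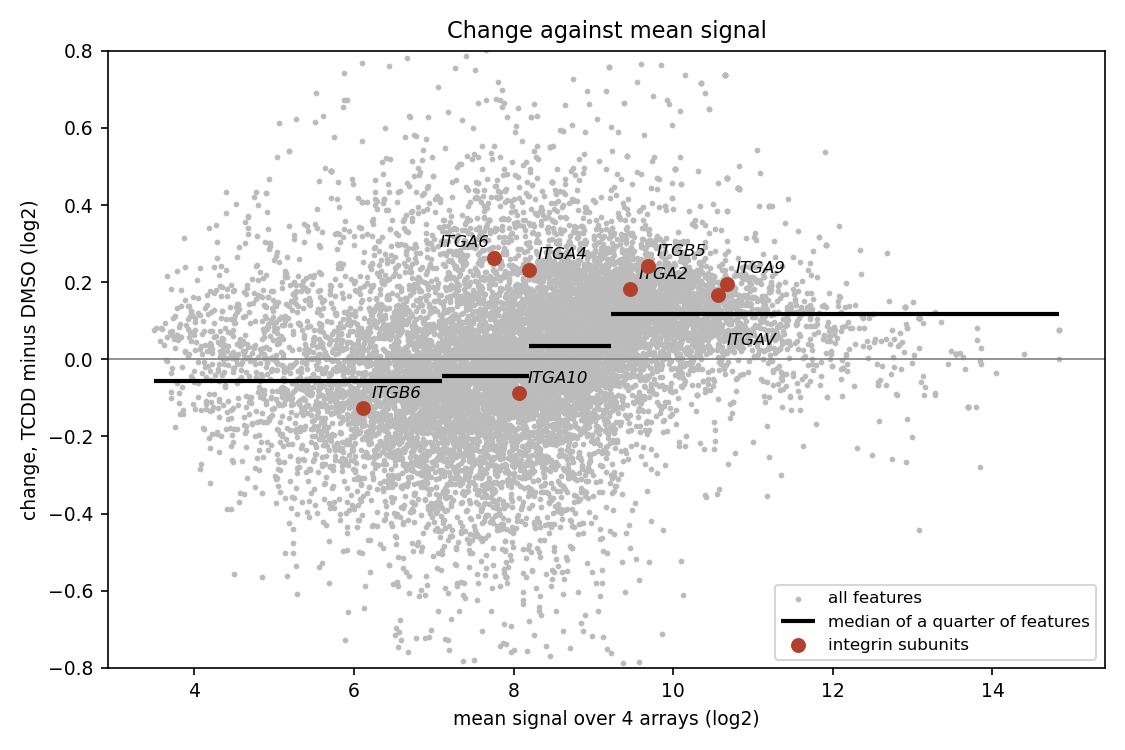
Change in TCDD minus DMSO (y axis, log2) against mean signal over the 4 arrays (x axis, log2) for all features (grey), with the 8 integrin subunits in red and black lines at the median change of each 25% of features by signal. ITGB5, ITGA2, ITGA9 and ITGAV lie where the median is 0.12, ITGA6 and ITGA4 where it is -0.042, and 69 features lie outside the drawn range.

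The value table has no detection calls. As a rough guide, 95% of 76 olfactory receptor features, a family with little expression outside the nose, had a mean signal under 8.34. ITGA2, ITGA9, ITGAV and ITGB5 lay above that signal, and ITGA6, ITGA4, ITGA10 and ITGB6 under it. Probes differ in how strongly they bind, so this does not rank the subunits by transcript number or show that any is absent. Of 7 neuroblastoma markers, 7 lay above it, as did 1 of 6 immune, 1 of 4 endothelial, 0 of 3 epithelial, 2 of 3 Schwann and glial and 3 of 5 fibroblast markers. Of the neuroblastoma markers 2 were called higher, in the direction of the called subunits, and 0 lower, where 9.41% and 8.01% of all features were. All 7 belonged to the brightest class of features, of which 12.5% were called higher and whose median change was 0.12. The median change of the 7 was 0.10, and -0.0037 after cyclic loess. Of those not called, HAND2, GATA2 and ALK were higher (0.091, 0.10 and 0.15), and ISL1 and MYCN lower (-0.034 and -0.044). The 2 called were PRRX1, a mesenchymal homeobox factor (0.26, limma adjusted p = 0.026), and HAND1, a basic helix-loop-helix factor (0.22, limma adjusted p = 0.049). Neither was called after cyclic loess (0.17 and 0.095) or quantile normalization (0.16 and 0.070), nor without TCDD replicate 1 (0.28 and 0.22), TCDD replicate 2 (0.24 and 0.21) or DMSO replicate 2 (0.27 and 0.17). Group means of the 6 immune markers ran from 6.13 to 9.19 in TCDD, against 6.24 to 9.31 in DMSO, and that of the defining leukocyte gene PTPRC was 6.13 in TCDD, against 6.24 in DMSO. The immune markers were 0 higher and 1 lower by call (FCGR3A, -0.29), the opposite direction to ITGA4, where 9.41% and 8.01% of all features were. FCGR3A averaged 7.62 (log2) in TCDD and 7.91 in DMSO, both under 8.34. Of its signal class, which also held ITGA6 and ITGA4, 12.4% of features were called lower. FCGR3A was also called after cyclic loess (-0.25) and quantile normalization (-0.26). Its call was lost without TCDD replicate 1 (-0.27), TCDD replicate 2 (-0.31) or DMSO replicate 2 (-0.25). After cyclic loess 2 of the 6 were called lower, where 6.77% of features were. The part of either marker list in the result was not tested.

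The 2 DMSO arrays were unequally far from the TCDD arrays. DMSO replicate 1 was nearer the TCDD mean for 7 of 8 subunits, all but ITGA6, and for 68.3% of all features. With DMSO replicate 1 left out, 6 of 8 subunits were called higher, where 19.1% of features were. With DMSO replicate 2 left out, limma called 0 of 8, where 2.74% of features were called higher, although 6 were higher at an unadjusted p under 0.05. Without TCDD replicate 1 or TCDD replicate 2, 0 of 8 were called by limma, with 2 and 3 higher at an unadjusted p under 0.05, where 4.05% and 5.97% of features were called higher. The shares of 2.74%, 4.05% and 5.97% are at an adjusted p, and none at an unadjusted p is given for these fits. With all arrays, 22.8% of features were higher at limma's unadjusted p under 0.05. The unadjusted counts of subunits above therefore have no matching background and cannot show whether there was an excess. The direction of every subunit was the same in each of these 4 fits.

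**Figure D4:**
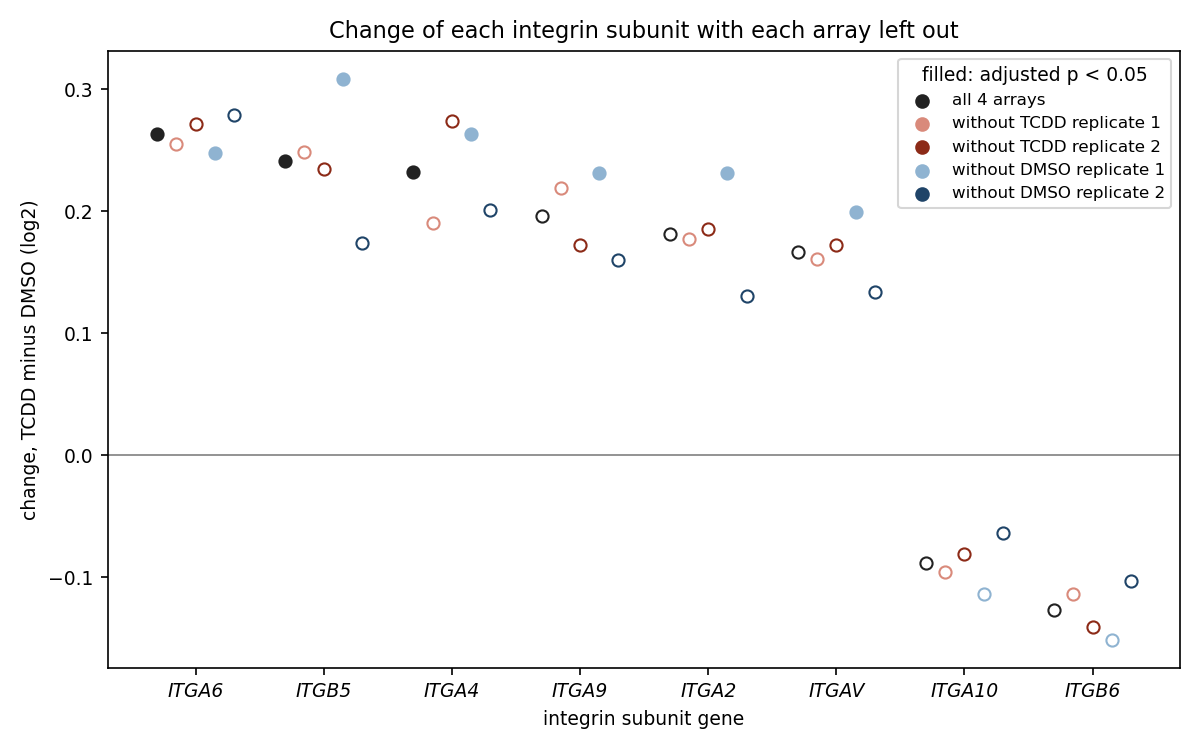
Change in TCDD minus DMSO (y axis, log2) for each subunit (x axis) with all 4 arrays and with each array left out, with filled points at a limma adjusted p under 0.05. No subunit crosses 0, and changes of the bright subunits are largest without DMSO replicate 1 and smallest without DMSO replicate 2.

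Genes whose signals ran most like those of the called subunits were sought among 6646 other features with 1 symbol, by the root mean square distance between values on the 4 arrays after centring each feature. ITGA6 was nearest to RNU7-62P, LINC00115 and ARSK, at 0.0073, 0.0098 and 0.011 log2 units. ITGA4 was nearest to DBT, PBX2P1 and MIR563, at 0.0039, 0.0061 and 0.0064. ITGB5 was nearest to TMCC1, CHTOP and RNF103, at 0.0057, 0.0062 and 0.0065. With 4 arrays, such likeness describes these arrays only.

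Ligands and partners of integrins on the same chromosomes were read from the same fit, as 6 lists with 92 measured genes. Of these, 6 rose and 2 fell, against 9.41% and 8.01% of all features. Medians of change were 0.0062 for 23 genes of fibronectin, other ligands and matrix, 0.017 for 15 collagens, 0.11 for 6 laminin and basement membrane genes, 0.060 for 19 focal adhesion adaptors, 0.14 for 14 kinases and GTPases and 0.12 for 15 lateral partners and trafficking genes. After cyclic loess normalization these medians were 0.0011, 0.000041, 0.014, 0.0046, 0.052 and 0.0066.

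Among ligands and matrix, 3 of 23 were called. LTBP1, which tethers latent TGF-beta to the matrix, read 8.77 and 8.84 (log2) in TCDD, against 8.57 and 8.53 in DMSO, and rose by 0.26 (SE 0.054, limma adjusted p = 0.030). FBLN2, a fibulin of basement membranes and elastic fibres, read 9.37 and 9.38 in TCDD, against 9.17 and 9.12 in DMSO, and rose by 0.23 (SE 0.051, limma adjusted p = 0.034). ECM1, a secreted matrix glycoprotein, read 8.59 and 8.65 in TCDD, against 8.85 and 8.85 in DMSO, and fell by 0.24 (SE 0.052, limma adjusted p = 0.033). These genes thus moved in both directions, and only FBLN2 lost its call after cyclic loess (0.14) and after quantile normalization (0.15). None of LTBP1, FBLN2 and ECM1 was called without TCDD replicate 1 (0.29, 0.23 and -0.21), TCDD replicate 2 (0.22, 0.23 and -0.27) or DMSO replicate 2 (0.24, 0.21 and -0.24). FN1 and VCAM1, ligands of ITGA4 named after their values were seen, differed by 0.086 (95% interval -0.037 to 0.21) and 0.13 (95% interval -0.045 to 0.31), and neither passed.

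Of 15 collagens, 0 were called higher and 1 lower. COL8A1, a short-chain collagen of vessel walls and subendothelial matrix, averaged 6.69 ± 0.069 (log2) in TCDD and 7.01 ± 0.10 in DMSO (SD, n = 2 arrays each). It fell by 0.32 (SE 0.070, limma adjusted p = 0.033). Its change was -0.25 after cyclic loess, where it was called, and -0.26 after quantile normalization, where it was not. The signal of COL8A1 lay under the 8.34 of the olfactory receptor guide and in the dimmest 25% of features. Of that class 10.5% were called lower, and the median change was -0.057. COL5A2, a fibrillar chain, differed by 0.13 and COL8A2 by -0.12, and neither passed. Of 6 laminin and basement membrane genes, NID1, the linker protein nidogen, rose by 0.20 (SE 0.052, limma adjusted p = 0.049), and its change was 0.074 after cyclic loess and 0.065 after quantile normalization, where it was not called. The laminin chains LAMC1 (0.20, limma adjusted p = 0.089) and LAMB2 (0.14, limma adjusted p = 0.111), parts of ligands of ITGA6, did not pass. COL8A1 and NID1 were not called without TCDD replicate 1 (-0.27 and 0.22) or DMSO replicate 2 (-0.25 and 0.18), nor was NID1 without TCDD replicate 2 (0.17).

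Inside the cell, 1 gene of each of the remaining 3 lists was called, all higher. SHC1, an adaptor that couples receptors to Ras, averaged 11.48 ± 0.038 (log2) in TCDD and 11.24 ± 0.056 in DMSO (SD, n = 2 arrays each), a rise of 0.24 (SE 0.056, limma adjusted p = 0.037). PIK3CB, a catalytic subunit of PI3-kinase, read 8.99 and 9.01 in TCDD, against 8.77 and 8.63 in DMSO, a rise of 0.30 (SE 0.064, limma adjusted p = 0.030). SNX17, a sorting nexin that returns integrins from endosomes to the surface, averaged 10.22 ± 0.024 in TCDD and 9.93 ± 0.12 in DMSO (SD, n = 2 arrays each), a rise of 0.29 (SE 0.070, limma adjusted p = 0.040). After cyclic loess normalization PIK3CB was still called (0.25), while SHC1 (0.13) and SNX17 (0.17) were not, and after quantile normalization PIK3CB (0.27), SHC1 (0.16) and SNX17 (0.16) were all uncalled. NCK1, an SH2 and SH3 adaptor, differed by 0.21, ITGB1BP1, which binds the ITGB1 tail, by 0.17, the GTPases RAP2B and RAP1A by 0.24 and 0.23, CD47, a partner of ITGAV receptors, by 0.17, and RAB11FIP5, a recycling effector, by -0.16, and none of these passed. RAB11FIP5 was called lower after cyclic loess (-0.22). SHC1, PIK3CB and SNX17 were not called without TCDD replicate 1 (0.27, 0.31 and 0.31), TCDD replicate 2 (0.22, 0.29 and 0.28) or DMSO replicate 2 (0.20, 0.23 and 0.21). Of the 8 partner calls, 0 remained without TCDD replicate 1, 0 without DMSO replicate 2 and 1 without TCDD replicate 2 (COL8A1), and 8 remained without DMSO replicate 1.

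**Figure D5:**
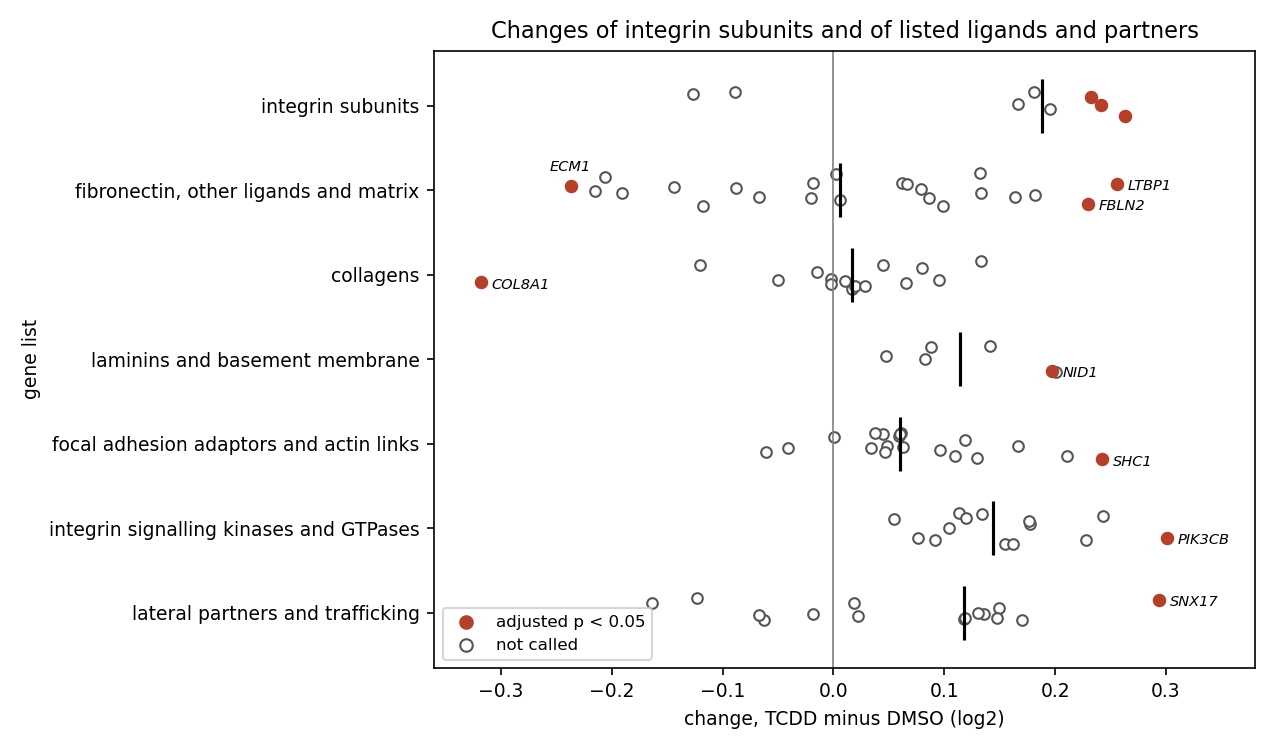
Change in TCDD minus DMSO (x axis, log2) of each integrin subunit and of each listed ligand or partner gene (points, spread vertically within a list), with black lines at list medians and red points at a limma adjusted p under 0.05. Called partner genes lie at both ends for ligands and matrix, only at the low end for collagens, and only at the high end for basement membrane and intracellular lists.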

How the data were processed

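RNA of 2 TCDD and 2 DMSO samples was labelled with biotin and hybridised to 1 array each, per the labels' protocols. The authors deposited log2 signals, for which the submitters' processing notes name RMA, with settings, build and summary level not given in the sources used here. They were used as deposited.

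Features were named from the platform annotation where it gave exactly 1 symbol (6647 features), updated through RefSeq names, of which 6645 were matched. Each feature was fitted with limma 3.58.1 in R 4.3.3 (lmFit and eBayes, 2 residual and 4.27 prior degrees of freedom), without a block. P-values are two-sided and adjusted by Benjamini-Hochberg over 13493 features, and a feature was called under 0.05. The function was tested on simulated arrays. List genes were represented by their brightest feature.

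The subunits and lists were chosen with earlier results of these data known. All measured neuroblastoma markers and PTPRC were named beside the genes that follow. Named were all subunits, the 3 genes of each ligand or partner list with the smallest p, every called gene of the lists, and the 3 nearest patterns of each called subunit. The 12 alternatives were a replicate block, quantile, cyclic loess and median scaling, array weights, a robust prior with a trend, leaving out the 25% or 50% of features with the lowest signal, and each array left out, where the lone array is assumed to vary like the other group.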

Additional observations from a re-analysis of the deposited data

How the results depend on the processing

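Under all 12 alternatives each of the 8 subunits kept the direction of its change wherever it was fitted. The number of subunits called was 3, against 1 after quantile normalization (ITGA6), and between 0 and 6 with an array left out. ITGA9 was also called with the replicate block, the robust trended prior and either removal of dim features. ITGA2 and ITGAV were also called with the dimmest 50% of features removed. With the replicate block every subunit had the same SE of 0.078, so calls there depended on the size of the change alone. Array weights, 0.51 for each DMSO array and 1.96 for each TCDD array, left ITGA4 uncalled. They differed between the groups only, so they did not weigh arrays of a group against each other. Calls over all features numbered 2351, against 1478 after quantile normalization and between 644 and 4661 with an array left out. Of the 92 ligand and partner genes 8 were called, against 2 after quantile normalization, 5 after cyclic loess, and between 0 and 30 with an array left out. Without the dimmest 50% of features, 67 of them were fitted and 13 called, where 25.4% of features were called. With all arrays, 21 of the 92 were higher and 6 lower at limma's unadjusted p under 0.05, where 22.8% and 16.7% of features were. No such share is given with an array left out, so unadjusted counts there cannot show whether these genes were in excess. Where limma called 0 of them, 9 (without TCDD replicate 1) and 24 (without DMSO replicate 2) had an unadjusted p under 0.05.

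Deviations of same-numbered arrays correlated at 0.037 across features. With 2 arrays a group, crossed numbers give the same value with its sign turned (-0.037). The correlation therefore cannot show whether same-numbered arrays share a culture or day. With the number as a replicate block, 4 subunits, 14 partner genes and 3634 features were called. The subunit calls in that fit, all at the same SE, do not test single genes. The number of arrays limits all of these counts, and signal over background was not given in the values used here.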
